A study of Mus musculus with 18 samples.

Results

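The transcripts of 45 enzymes of amino acid breakdown and closely linked amino acid metabolism were followed in mouse kidney proximal tubules from isolation through 14 days of primary culture. They are a list of gene names, looked up by exact match among the 55421 genes of the deposited tables. Of the 45, 44 matched by name and 1, Mut, by its gene ID, since the tables call it Mmut. They were sorted into 13 groups by the amino acid or compound they act on. Not every member breaks an amino acid down: Gatm makes the precursor of creatine, Glul makes glutamine, Ass1 and Asl make arginine, and Qdpr recycles a pterin cofactor.

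Proximal tubule cells take up nearly all filtered amino acids and hold many of the enzymes that strip their nitrogen and burn their carbon skeletons, most of them in the mitochondrial matrix, some in the cytosol and a few in peroxisomes. The breakdown products feed the citric acid cycle, glucose production and ammonia formation, for which this segment is known. The kidney also exports creatine precursor and arginine to the rest of the body.

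RNA with polyA tails was sequenced from tubules of wild type, untreated C57BL/6J female mice aged 6 weeks, with 3 libraries (replicates A, B and C) on each of 6 days, 18 in all. Day 0 is freshly isolated tubules, released by collagenase and enriched on a Percoll gradient, and days 1, 2, 4, 7 and 14 are cells grown from them on plastic without passage. Whether replicates A, B and C were separate animals or separate cultures is not stated in the labels. The p-values therefore speak only of the spread among these 18 samples, part of which may be technical. The question was how the transcripts of each amino acid group changed between isolation and the culture days, and whether any came back.

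The level of a gene across libraries is its CPM, the estimated counts divided by a TMM-adjusted library size. Where genes are set against each other, the deposited TPM is used, which allows for transcript length. A gene was called higher or lower at a Benjamini-Hochberg adjusted p under 0.05 from edgeR's quasi-likelihood test over 18754 genes, and fold changes are log2 values with their standard error (SE). Totals ran from 23799559 to 37579097 estimated counts per library. Replicate C of day 7 stood apart: its counts differed from those of replicates A and B of that day with a chi-square per degree of freedom of 139.9 and 143.0, against 6.59 to 46.9 for the other pairs within a day. On day 7 its CPM was the lowest of the 3 for 27 of the 40 members with any count, and its summed markers of the loop of Henle were 8.29 CPM against 58.5 and 76.9 in replicates A and B. On day 1, replicate B was the highest for 43 of 44 members, with a median 1.501 times the mean of the other 2, and replicate C the lowest for 41. The summed proximal tubule markers showed the same order on that day, 12316 CPM in replicate B, 8202 in A and 6113 in C. On day 2, replicate A was the highest for 39 of 44 members and B the lowest for 36. Proximal tubule markers then summed to 1740 CPM in A, 881 in B and 1091 in C. On day 0, which enters 5 of the comparisons, replicate C was the lowest for 32 of 44 members. The part of these library differences in the results was not tested, and results of day 7 are given with and without replicate C where it moves them.

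As a check of the labels, 16 proximal tubule markers were all detected on day 0. Their summed level ran from 32023 to 36856 CPM on day 0 and from 33.4 to 46.3 CPM on day 14, and all 15 that could be tested were lower on day 14 than on day 0. Of the markers of other cells, 6 of 6 for the loop of Henle, 5 of 6 for the distal convoluted tubule, 10 of 11 for the collecting duct, 7 of 7 for endothelium and 6 of 6 for podocytes were also lower on day 14. Summed levels on day 0 were 3276 to 4196 CPM for the loop of Henle and 4620 to 5842.5 CPM for the distal convoluted tubule. For the collecting duct they were 1357 to 2007.5 CPM, for endothelium 158 to 197 and for podocytes 258 to 320. The day 0 tubules thus held RNA of other nephron segments too. Of 7 macrophage markers, 4 were lower and 1 higher, with a summed level of 21.3 to 52.6 CPM on day 0 and 32.7 to 38.8 CPM on day 14. Of 6 fibroblast markers tested, 3 were lower and 3 higher, with a summed level of 29.4 to 32.2 CPM on day 0 and 138 to 189 CPM on day 14. On day 14 the markers at 0 counts were Slc22a8 (proximal tubule), Pvalb and Klk1 (distal convoluted tubule), Slc4a1 and Foxi1 (collecting duct) and Lum (fibroblast). In bulk RNA, fewer cells of a type and less RNA per cell cannot be told apart, and the part of the cell make-up in the changes below was not tested.

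Nearly all members fell in culture. Of the 44 members that could be tested, 42 were lower on day 1 than on day 0, 43 on each of days 2, 4 and 7, and 42 on day 14, while 37.1%, 35.3%, 36.8%, 32.1% and 32.1% of all genes tested were called lower in the same comparisons. On each of these days 1 member, Arg2, was higher, where 33.1%, 38.9%, 38.1%, 37.6% and 37.4% of all genes were. These 5 comparisons share the day 0 libraries, and without replicate C of day 7 the counts for that day were again 43 and 1. The median log2 fold change over the 44 was -1.95, -4.06, -4.42, -4.21 and -4.46 on days 1, 2, 4, 7 and 14 (-4.16 on day 7 without replicate C), and the day 14 value is the same with the 5 members at 0 counts on day 14 set to their detection floor. The median of all tested genes lay between -0.01 and 0.16 in these comparisons. All 44 passed the test of any difference among the 6 days, which 89.8% of all genes passed. The remaining member, Otc, the urea cycle enzyme that joins ornithine and carbamoyl phosphate, had 1 estimated count in all 18 libraries and was not tested.

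Summed over the 45 members, TPM went from 12847, 12445 and 11566 in replicates A, B and C of day 0 to 3651, 4737 and 2905 on day 1, 1468, 1129 and 1257 on day 2, and 982, 896 and 952 on day 4. The sums on day 7 were 1218, 1205 and 1014, and on day 14 they were 1302, 1332 and 1353. The 3 libraries of each culture day lay below all of those of day 0, and those of day 14 lay above all of those of day 4. In mean TPM, Gatm and Ass1 together held 34.4% of the sum on day 0 and 4.55% on day 14. The 5 leading members on day 0 were Gatm, Ass1, Aldh6a1, Qdpr and Hibadh, and on day 14 they were Cth, Hibadh, Glud1, Qdpr and Oat. Cth alone, the enzyme that makes cysteine from cystathionine, went from 1.47% to 16.7% of the members' summed TPM, although its own CPM was not called different between these days with all 18 libraries in the model.

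**Figure D1:**
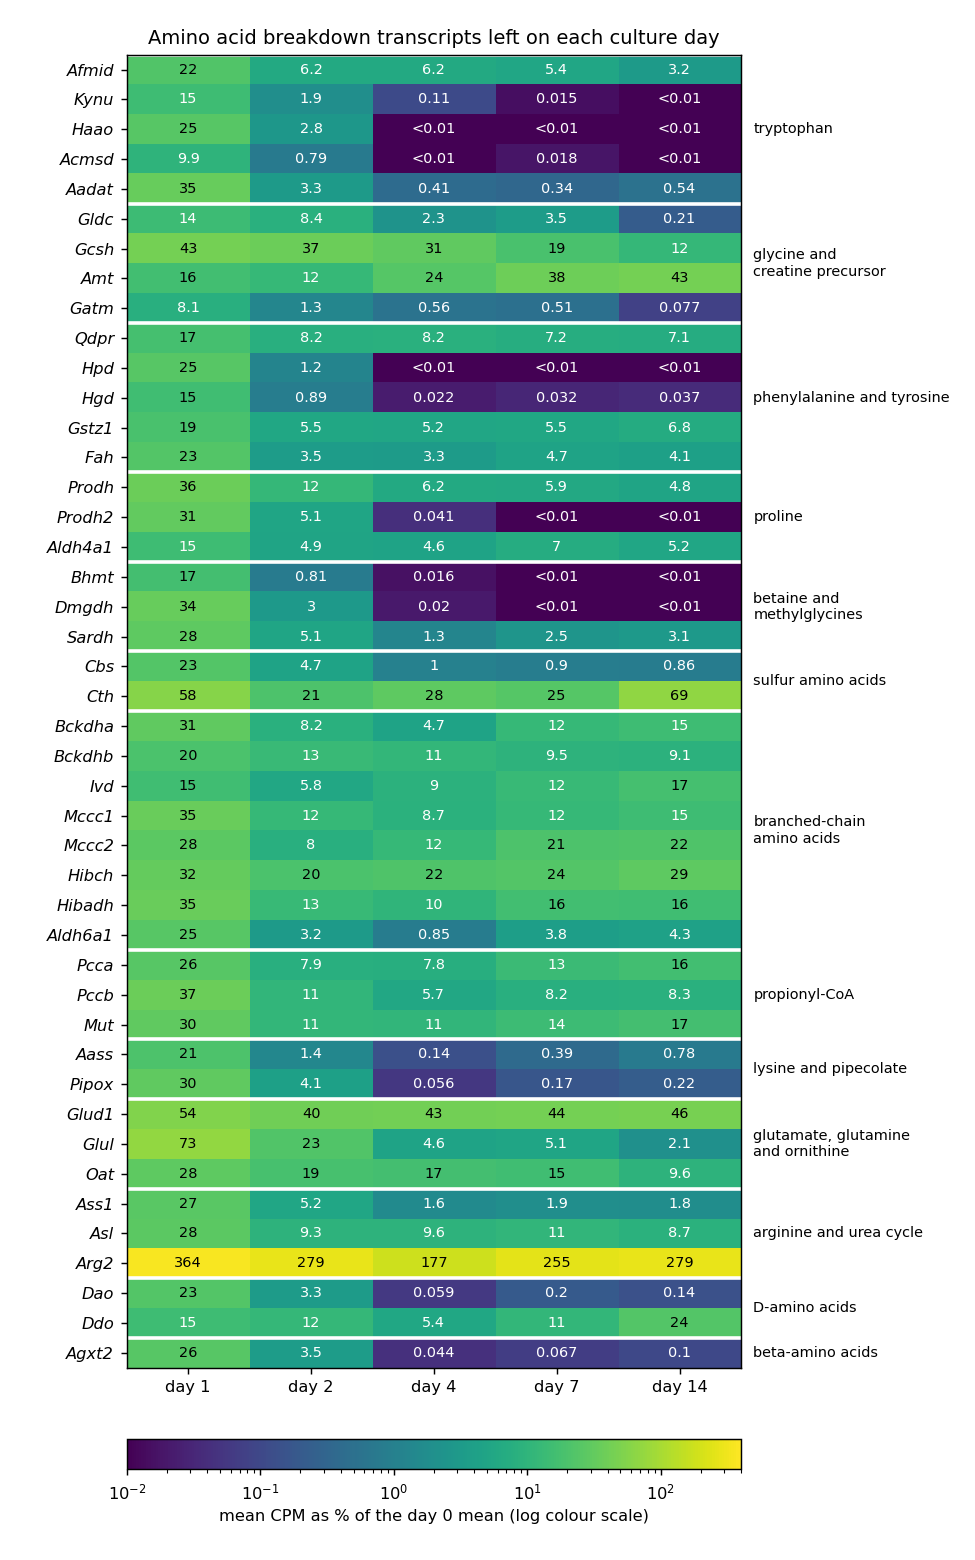
Mean CPM of each tested member on days 1, 2, 4, 7 and 14 as a percentage of its day 0 mean, grouped by amino acid, on a log colour scale whose darkest shade stands for 0.01% or less. Most rows darken from day 1 to day 4, the 7 members that reached 0 counts hold the darkest cells, and Arg2 is the row above 100% throughout.

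Most of the fall came within 4 days. For the first day, log2 fold changes of the 44 members ran from -3.62 for Gatm to -0.46 for Glul, with Arg2 apart at 1.87. The median member kept 25.8%, 5.99%, 4.66%, 5.40% and 4.53% of its day 0 CPM on days 1, 2, 4, 7 and 14. Between day 1 and day 4, 43 members were called lower, where 31.7% of all genes were, and 0 were called higher by edgeR, where 27.5% of all genes were. At an unadjusted p under 0.05 there were also 0 higher, and DESeq2 and limma called 0 as well. Without replicate C of day 7, Amt was called higher between these days (adjusted p = 0.0109). Leaving out 1 library moved the 43 to between 39 and 43: Gldc lost its call without replicate B of day 1 or of day 4, Ivd without B of day 1, Cth and Arg2 without B of day 4, and Gcsh without any 1 of 8 libraries. With limma on log2(TPM + 1), 36 were lower. On day 4, 33 members were at 10% of day 0 or less, and on day 14, 30 were. On day 14, 16 members were under 1% of day 0, from all 13 groups except those of branched-chain amino acids, propionyl-CoA, glutamate and arginine, and 2, Cth and Arg2, were at 50% or more.

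Of the members, 7 fell to 0 counts in all 3 libraries of at least 1 day, so on those days their fold is a lower bound, computed with 3 counts set in place of 0 for the day as a whole. They are Kynu, Haao and Acmsd of tryptophan breakdown, Hpd of tyrosine breakdown, Prodh2 of hydroxyproline breakdown, and Bhmt and Dmgdh of betaine breakdown. These floors, and the 95% intervals given below for 1 to 3 counts, cover counting error only.

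In 12 of the 13 groups, the summed TPM of every library of each culture day lay below all of day 0. The exception was sulfur amino acids, where day 14 (202, 242 and 225 TPM) overlapped day 0 (266, 231 and 198 TPM). For Agxt2, the sole beta-amino acid enzyme, TPM was 0.07, 0 and 0.03 on day 4, from 4 counts in all, against 54.7, 52.2 and 44.5 on day 0, and no fold is given at so few counts. On day 4 the summed TPM was 700.4 times lower than on day 0 for lysine and pipecolate, 104 times for tryptophan, 57.5 times for betaine and methylglycines and 41.96 times for D-amino acids. It was 23.6 times lower for glycine and creatine precursor, 21.5 times for arginine and urea cycle, 15.1 times for proline and 15.1 times for phenylalanine and tyrosine. The smallest losses were 10.04 times for branched-chain amino acids, 7.24 times for propionyl-CoA, 3.55 times for glutamate, glutamine and ornithine and 2.86 times for sulfur amino acids. The order rests on means of 3 libraries and on 2 to 8 genes a group, and no test between groups was made.

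**Figure D2:**
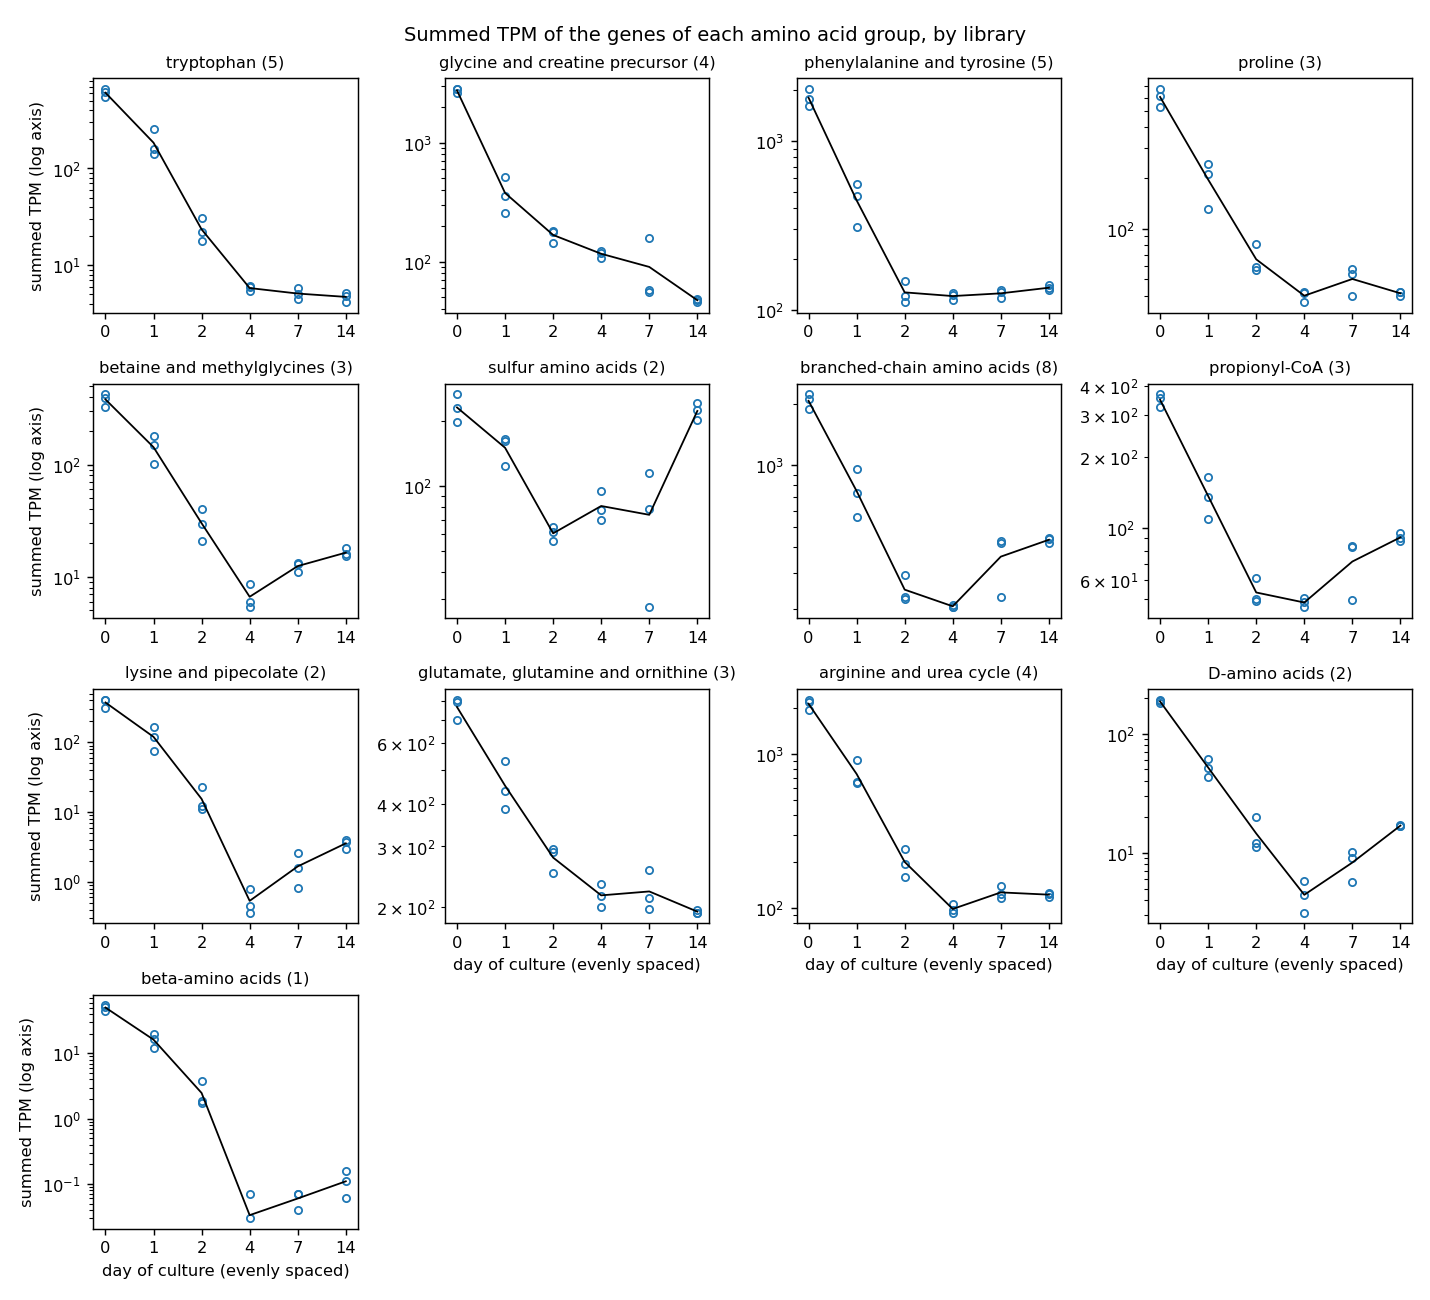
Summed TPM of the genes of each amino acid group (number of genes in brackets) in every library, on log axes that differ between panels, against day of culture, with open circles for libraries and a line through the day means. The 1 library at 0 (beta-amino acids, day 4) cannot be drawn on a log axis. The means are lowest on day 14 for tryptophan, glycine and glutamate, on day 2 for sulfur amino acids, and on day 4 in the other panels.

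The promoters of the members were searched for 3 short motifs, as the members fell together. RefSeq promoters (GRCm38.p6, 250 bases before to 50 after a start) were found for 40 of the 45 members. The HNF4 motif CAAAGTCCA, read on both strands, was in the promoters of 3 of these 40 genes (Aadat, Pipox and Agxt2), and in 0.555% of all 27025 genes with a promoter. The HNF1 motif GTTAATNAT was in 1 of the 40 (Prodh2), and in 0.940% of all genes, and the motif TGATGNAAT bound by C/EBP and ATF factors was in 0 of the 40 and in 1.08% of all. Aadat, Prodh2, Pipox and Agxt2 are shown because they hold the matches. A match is a description of the letters in this window, and absence of one says only that these letters are not there.

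The 4 promoters are written in the direction of the gene, with the motif in capitals. The match began 72 bases before the start in Aadat (chr8:60505874-60506173, plus strand), 127 before in Prodh2 (chr7:30493408-30493707, plus strand), at base 16 after the start in Pipox (chr11:77893823-77894122, minus strand) and 21 before in Agxt2 (chr15:10358283-10358582, plus strand). Agxt2 has another start, whose promoter (chr15:10358329-10358628) is not printed, and the same match began 67 bases before it. In Aadat, Prodh2 and Pipox the motif lies on the strand opposite to the gene, so its reverse complement is seen.
Aadat: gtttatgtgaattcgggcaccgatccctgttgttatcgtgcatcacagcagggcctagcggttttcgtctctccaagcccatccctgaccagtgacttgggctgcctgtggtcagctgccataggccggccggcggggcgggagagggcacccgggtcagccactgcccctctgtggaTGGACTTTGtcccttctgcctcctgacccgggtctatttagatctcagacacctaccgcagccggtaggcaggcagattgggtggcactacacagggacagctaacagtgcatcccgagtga
Prodh2: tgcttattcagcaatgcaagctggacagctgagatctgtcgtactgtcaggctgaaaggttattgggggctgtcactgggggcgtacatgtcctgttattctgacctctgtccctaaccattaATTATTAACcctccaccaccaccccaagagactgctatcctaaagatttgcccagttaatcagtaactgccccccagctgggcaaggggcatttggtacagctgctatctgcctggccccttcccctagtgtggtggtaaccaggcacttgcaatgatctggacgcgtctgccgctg
Pipox: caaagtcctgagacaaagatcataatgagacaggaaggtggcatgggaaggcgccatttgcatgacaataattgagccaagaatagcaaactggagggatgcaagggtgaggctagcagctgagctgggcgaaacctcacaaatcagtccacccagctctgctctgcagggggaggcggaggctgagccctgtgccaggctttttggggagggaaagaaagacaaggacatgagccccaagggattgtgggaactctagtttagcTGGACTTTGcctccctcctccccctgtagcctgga
Agxt2: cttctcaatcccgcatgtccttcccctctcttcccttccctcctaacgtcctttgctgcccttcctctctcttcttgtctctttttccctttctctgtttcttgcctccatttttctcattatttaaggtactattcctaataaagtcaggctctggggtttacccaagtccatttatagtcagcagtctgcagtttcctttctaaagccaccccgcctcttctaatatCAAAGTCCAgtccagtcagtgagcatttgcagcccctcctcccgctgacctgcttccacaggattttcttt
All 4 genes were lower on each culture day than on day 0, as were 41 of the 44 members tested. Each was under 1% of its day 0 level on day 14, and they are among 16 members at that level. Whether a match goes with the size of the fall was not tested.

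In the tryptophan group, 5 of 5 members were lower on each culture day, and the median member kept 22.1% of its day 0 CPM on day 1, 2.78% on day 2 and 0.11% on day 4. Aadat, the mitochondrial kynurenine aminotransferase (chr8:60505932-60545677, gene span in GENCODE vM21 on GRCm38, as for the genes below), had the highest level per length of the group, 227 ± 45.3 TPM (SD, n = 3) on day 0. It stood at 346, 237 and 342 CPM in replicates A, B and C of day 0, 74.2, 161 and 85.2 (day 1), 11.8, 8.03 and 10.3 (day 2), 1.58, 0.942 and 1.27 (day 4), 1.23, 1.098 and 0.825 (day 7) and 1.12, 2.39 and 1.53 (day 14). Its libraries of day 1 already lay below those of day 0, and those of days 4, 7 and 14 lay between 0.825 and 2.39 CPM. The log2 fold change of day 14 against day 0 was -7.53 ± 0.36 (SE, adjusted p = 3.9e-11).

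Kynu, kynureninase (chr2:43555329-43682715), which splits alanine from kynurenines, stood at 71.4, 71.6 and 61.8 CPM in replicates A, B and C of day 0, 8.91, 15.02 and 6.45 (day 1), 1.53, 0.821 and 1.48 (day 2), 0.0633, 0.162 and 0 (day 4), 0.0301, 0 and 0 (day 7) and 0, 0 and 0 (day 14). From day 4 on, each library held at most 0.162 CPM. With 1 count over the 3 libraries of day 7 it was 6061 (95% interval 1087 to 239460) times lower than on day 0, and with 0 counts on day 14 at least 2069.7-fold lower. Haao, which opens the ring of hydroxyanthranilate, went from 169.8 ± 20.6 CPM on day 0 (SD, n = 3) to 42.7 ± 14.4 on day 1, and was at 0 counts on days 4 and 7, at least 5137-fold and 4990.0-fold lower. Acmsd, whose enzyme diverts the next intermediate away from quinolinate and NAD, went from 415 ± 52.6 to 40.96 ± 11.3 CPM on day 1 and was at least 12545-fold lower on day 4. Haao had 1 count and Acmsd 3 counts on day 14. Afmid, the formamidase that yields kynurenine, kept the most of this group, 6.17% of day 0 on day 4 and 3.24% on day 14. It overlaps Tk1 on the other strand, which was at 65.2 ± 5.24 CPM (SD, n = 3) on day 4 and 3.22 ± 0.418 on day 14. The strand setting of the counting is not given in the sources used here, and the reads of such a pair may be shared between the genes.

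Of the glycine cleavage system and the creatine pathway, 4 of 4 members were lower on every culture day. Gatm, glycine amidinotransferase (chr2:122594467-122611303), which makes the creatine precursor guanidinoacetate, led the list on day 0 at 2425 ± 78.7 TPM (SD, n = 3). It stood at 5450.3, 5747 and 5343 CPM in replicates A, B and C of day 0, 408, 700.0 and 239.6 (day 1), 91.5, 48.3 and 78.5 (day 2), 36.9, 22.4 and 33.4 (day 4), 11.3, 7.01 and 65.6 (day 7) and 5.19, 3.06 and 4.46 (day 14). Each day's libraries lay below all those of day 0, by 12.3 times in the mean on day 1 and 1301 times on day 14, and replicate C of day 7 was the high value of its day. The log2 fold change on day 7 was -7.63 ± 0.77 with replicate C and -9.22 without it, and on day 14 it was -10.34 ± 0.87 (adjusted p = 2.47e-08). Gatm went on falling late, with -2.86 ± 0.66 from day 4 to day 14 (adjusted p = 0.00186).

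The other 3 genes encode parts of the glycine cleavage system. Gldc, the decarboxylase that starts it, went from 563, 566 and 299.9 CPM on day 0 to 12.9, 8.77 and 11.8 on day 4, 2.16, 1.49 and 46.2 on day 7 and 1.31, 0.748 and 1.01 on day 14. On day 7 replicate C stood far above A and B, and the log2 fold change on day 7 was -4.85 with it and -8.00 without it. Gcsh, the lipoyl carrier protein, kept 43.3% of its day 0 CPM on day 1 and 11.7% on day 14. Gldc and Gcsh were both called lower on day 14 than on day 4, with -3.43 ± 1.05 and -1.39 ± 0.18. Amt, the aminomethyltransferase, stood at 11.5, 11.3 and 12.5 CPM in the libraries of day 0, 1.77, 2.27 and 1.74 (day 1), 2.4996, 3.05 and 2.92 (day 4) and 4.35, 5.45 and 5.34 (day 14). Its rise from day 4 to day 14 was 0.84 ± 0.33 (adjusted p = 0.0422), and that call was lost when any 1 of 13 of the 18 libraries was left out, with adjusted p up to 0.121. Its fall on day 14 against day 0 was -1.22 ± 0.32, and it was not called with library sizes alone (-0.66) or with limma on log2(TPM + 1) (-0.23).

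Of the phenylalanine and tyrosine group, 5 of 5 members were lower on every culture day. Qdpr, dihydropteridine reductase (chr5:45434021-45450236), which regenerates a pterin cofactor, had the highest level of the group at 666 ± 29.5 TPM (SD, n = 3) on day 0. It stood at 669, 696 and 641 CPM in replicates A, B and C of day 0, 117, 146 and 83.7 (day 1), 59.7, 54.3 and 49.4 (day 2), 54.8, 60.1 and 49.9 (day 4), 50.2, 49.2 and 45.7 (day 7) and 47.02, 46.1 and 49.2 (day 14). The 12 libraries after day 1 lay between 45.7 and 60.1 CPM, with all of day 14 below all of day 4. The late difference of -0.21 ± 0.14 was not called (adjusted p = 0.229), but was with only the libraries of these 2 days (adjusted p = 0.00447). The log2 fold change on day 14 was -3.82 ± 0.16 (adjusted p = 8.01e-12).

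Hpd, hydroxyphenylpyruvate dioxygenase (chr5:123171807-123182727), which acts once tyrosine has lost its amino group, stood at 389.8, 231 and 136 CPM in replicates A, B and C of day 0, 79.4, 81.3 and 29.99 (day 1), 5.83, 0.709 and 2.32 (day 2), 0, 0.0325 and 0 (day 4), 0, 0 and 0 (day 7) and 0, 0 and 0 (day 14). On day 0 replicate A was well above C, yet no library of a culture day reached the lowest of day 0. With 0 counts it was at least 7409-fold lower on day 7 and 7643-fold lower on day 14. Hgd, homogentisate dioxygenase, averaged 506 ± 24.7 CPM (SD, n = 3) at isolation, 78.1 ± 32.5 a day later, 0.112 ± 0.0729 on day 4 and 0.188 ± 0.0254 at the end. Of the last steps, Gstz1, maleylacetoacetate isomerase, was at 6.77% of day 0 on day 14, and Fah, fumarylacetoacetate hydrolase, at 4.14%. For both genes every library of day 14 lay above those of day 4, a difference not called with all 18 libraries in the model. With only the libraries of these 2 days both were called higher (Gstz1 0.32, adjusted p = 0.00335, Fah 0.28, adjusted p = 0.0143). Limma on log2(TPM + 1) called both too (adjusted p = 0.0276 and 0.0318). Hpd overlaps Psmd9 and Gstz1 overlaps Pomt2 on the other strand.

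In the proline group, 3 of 3 members were lower on every culture day. Aldh4a1, which oxidises pyrroline-carboxylate to glutamate (chr4:139622866-139649690), had the highest level at 275 ± 6.57 TPM (SD, n = 3) on day 0. It stood at 918, 939 and 892 CPM in replicates A, B and C of day 0, 140.1, 178 and 84.4 (day 1), 54.4, 40.1 and 39.6 (day 2), 43.2, 39.7 and 43.6 (day 4), 72.9, 70.6 and 47.7 (day 7) and 45.5, 47.7 and 49.6 (day 14). The libraries of days 2 to 14 lay between 39.6 and 72.9 CPM, and the log2 fold change on day 14 was -4.27 ± 0.24 (adjusted p = 1.67e-10).

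The dehydrogenases for proline and for hydroxyproline were both lower. Prodh2, the hydroxyproline enzyme (chr7:30493622-30513402), stood at 234, 227 and 179.6 CPM in replicates A, B and C of day 0, 65.9, 92.2 and 41.9 (day 1), 16.5, 8.89 and 7.17 (day 2), 0.127, 0.064996 and 0.0704 (day 4), 0, 0 and 0.0375 (day 7) and 0, 0 and 0 (day 14). From day 4 on no library exceeded 0.127 CPM. It was 19012 (95% interval 3412 to 750980) times lower on day 7 with 1 count and at least 6473-fold lower on day 14. Prodh, the proline enzyme, kept 36.4%, 6.202% and 4.78% of its day 0 CPM on days 1, 4 and 14, from 367 ± 83.2 CPM (SD, n = 3). Prodh overlaps Dgcr6, which was at 105 ± 1.23 CPM on day 0 and 36.3 ± 1.47 on day 14.

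Betaine and the methylglycines are handled by 3 enzymes in sequence, all lower on every culture day. Bhmt, which passes a methyl group from betaine to homocysteine in the cytosol, was at 96.3, 54.99 and 47.2 CPM on day 0 and 1.02, 0.149 and 0.438 on day 2, and with 0 counts was at least 1944-fold lower on day 7 and 2006-fold lower on day 14. Dmgdh, dimethylglycine dehydrogenase (chr13:93674433-93752833), stood at 132, 109.7 and 87.9 CPM in replicates A, B and C of day 0, 35.9, 48.7 and 27.3 (day 1), 4.65, 1.75 and 3.54 (day 2), 0.0316, 0 and 0.0352 (day 4), 0, 0 and 0 (day 7) and 0, 0 and 0 (day 14). It had 2 counts on day 4, 5016 (95% interval 1388 to 41430) times lower than day 0, and with 0 counts was at least 3234-fold lower on day 7 and 3336-fold lower on day 14.

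Sardh, sarcosine dehydrogenase (chr2:27188393-27248337), the last of the 3 and the related enzyme to Dmgdh in the matrix, had the highest level of the group at 315 ± 32.98 TPM (SD, n = 3) on day 0. It stood at 967, 1018 and 856 CPM in replicates A, B and C of day 0, 261, 367 and 179 (day 1), 66.4, 32.2 and 44.9 (day 2), 15.3, 10.1 and 10.4 (day 4), 23.1, 24.4 and 24.1 (day 7) and 27.8, 31.3 and 28.7 (day 14). It was lowest on day 4, and all libraries of days 7 and 14 lay above those of day 4. Day 14 was -5.02 ± 0.29 against day 0 (adjusted p = 2.52e-10) and 1.29 ± 0.26 against day 4 (adjusted p = 0.000592).

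The sulfur amino acid enzymes are Cbs and Cth. Cbs, cystathionine beta-synthase (chr17:31608894-31637238), which joins homocysteine and serine, stood at 145, 111 and 104 CPM in replicates A, B and C of day 0, 29.6, 36.6 and 17.7 (day 1), 7.86, 3.77 and 5.15 (day 2), 1.27, 1.07 and 1.37 (day 4), 1.202, 0.673 and 1.35 (day 7) and 0.715, 1.18 and 1.21 (day 14). It was lower on every culture day, with -6.86 ± 0.36 on day 14 (adjusted p = 1.01e-10), and the libraries of days 4, 7 and 14 overlapped.

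Cth, cystathionine gamma-lyase (chr3:157894248-157925077), stood at 330.4, 311 and 257 CPM in replicates A, B and C of day 0, 184, 198 and 142 (day 1), 54.9, 61.3 and 69.3 (day 2), 79.6, 75.3 and 99.96 (day 4), 79.5, 116 and 25.5 (day 7) and 187, 229 and 206 (day 14). It was lowest in mean on day 2, every library of day 14 lay above those of days 1, 2, 4 and 7 except that replicate B of day 1 was above replicate A of day 14, and all of day 14 lay below all of day 0. It was called lower on day 2 (-2.27 ± 0.35), day 4 (-1.82 ± 0.34) and day 7 (-2.02 ± 0.35, or -1.61 without replicate C), and higher on day 14 than on day 4 (1.29 ± 0.34, adjusted p = 0.00484). Its call on day 1 (-0.78 ± 0.33, adjusted p = 0.049) was at the threshold and was lost in 20 of 27 alternatives, 16 of them the loss of a single library. On day 14 against day 0 it was -0.53 ± 0.33 and not called (adjusted p = 0.169), was called lower with only the libraries of these 2 days (-0.64, adjusted p = 2.36e-04) and without replicate C of day 7 (adjusted p = 0.00625), and had the opposite sign, 0.03, with library sizes alone and 0.30 with limma on log2(TPM + 1), neither called. In TPM it averaged 181 ± 24.8 at isolation (SD, n = 3) and 222 ± 19.3 on day 14.

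The branched-chain group, with 8 enzymes of leucine, isoleucine and valine breakdown, was lower in 8 of 8 on every culture day and kept a median 9.70% of day 0 CPM on day 4 and 15.3% on day 14. Aldh6a1, methylmalonate-semialdehyde dehydrogenase of the valine branch (chr12:84430717-84451004), had both the highest level, 771 ± 89.5 TPM (SD, n = 3) on day 0, and the largest fall. It stood at 2693, 2798 and 2247 CPM in replicates A, B and C of day 0, 627, 910.3 and 427 (day 1), 120.2, 53.7 and 73.8 (day 2), 25.03, 18.5 and 22.3 (day 4), 136, 119.9 and 35.9 (day 7) and 111, 111 and 109.6 (day 14). The 3 libraries of day 14 lay within 2 CPM of each other and above all those of day 4, and replicate C of day 7 lay between these days. Day 4 was -6.88 ± 0.49 against day 0, day 7 -4.73 ± 0.44 (-4.33 without replicate C) and day 14 -4.54 ± 0.44 (adjusted p = 1.26e-07), so that day 14 was 2.33 ± 0.40 above day 4 (adjusted p = 0.000181).

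Of the other valine enzymes, Hibch, which frees hydroxyisobutyrate from its CoA, kept 21.995% of day 0 on day 4 and 28.7% on day 14, and Hibadh, the next dehydrogenase, 10.4% and 15.7%. In the leucine branch, Ivd, isovaleryl-CoA dehydrogenase, kept 5.804% on day 2 and 17.5% on day 14. Mccc1 and Mccc2, which form methylcrotonyl-CoA carboxylase together, kept 14.8% and 21.9% on day 14. Bckdha and Bckdhb, the paired subunits of the branched-chain ketoacid decarboxylase that commits all 3 amino acids, were both lower on every culture day. Bckdha stood at 382, 363 and 376 CPM on day 0, 18.8, 16.9 and 16.9 on day 4 and 57.5, 51.9 and 55.6 on day 14, a rise of 1.65 ± 0.25 after day 4 (adjusted p = 5.85e-05). Bckdhb stood at 77.9, 58.2 and 68.2 CPM on day 0, 8.51, 6.4996 and 7.71 on day 4 and 5.003, 7.02 and 6.61 on day 14, with -0.29 ± 0.18 after day 4, not called and with overlapping libraries (adjusted p = 0.207). The difference between the subunits was not tested. Bckdha overlaps B3gnt8 on the other strand, which was at 0.387 ± 0.0331 CPM on day 4 and 0.575 ± 0.0953 on day 14.

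Propionyl-CoA, the end product of valine and isoleucine carbon, is turned into succinyl-CoA by Pcca and Pccb, the subunits of its carboxylase, and by Mut, the cobalamin-dependent mutase, and 3 of 3 were lower on every culture day. Mut (chr17:40934685-40961988) had the highest level at 152 ± 13.8 TPM (SD, n = 3) on day 0. It stood at 572, 584 and 492 CPM in replicates A, B and C of day 0, 162, 212 and 127 (day 1), 68.03, 57.4 and 56.1 (day 2), 63.5, 58.4 and 57.8 (day 4), 92.2, 91.1 and 51.6 (day 7) and 92.04, 94.1 and 94.5 (day 14). Every library of day 14 lay above those of day 4, and the log2 fold change was -2.55 ± 0.20 against day 0 (adjusted p = 1.09e-08) and 0.64 ± 0.19 against day 4 (adjusted p = 0.0105). Mut overlaps Cenpq on the other strand, which was at 28.2 ± 0.371 CPM on day 4 and 3.88 ± 0.282 on day 14.

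Pccb (chr9:100982032-101034898) had the largest fall of the 3. It stood at 187, 174 and 174 CPM in replicates A, B and C of day 0, 64.3, 80.7 and 52.8 (day 1), 22.7, 15.4 and 20.01 (day 2), 10.9, 10.04 and 9.33 (day 4), 16.7, 16.1 and 10.8 (day 7) and 15.3, 14.03 and 15.1 (day 14). Day 14 lay above day 4 in every library, at 0.55 ± 0.18 (adjusted p = 0.0152, or 0.0591 without replicate C of day 4), and below day 0 at -3.59 ± 0.19 (adjusted p = 7.69e-11). Pcca, which overlaps Ggact, kept 7.81% of day 0 on day 4 and 15.9% on day 14, with 1.03 ± 0.19 between these days.

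Both lysine enzymes were under 1% of day 0 on day 4 and were called higher again on day 14, at small levels. Aass, the bifunctional enzyme that starts lysine breakdown in mitochondria (chr6:23072173-23132986), stood at 713, 727 and 506 CPM in replicates A, B and C of day 0, 135, 197 and 73.3 (day 1), 15.7, 5.003 and 6.096 (day 2), 0.759, 0.357 and 1.51 (day 4), 3.58, 2.66 and 1.35 (day 7) and 4.38, 4.95 and 5.93 (day 14). All libraries of day 14 lay above all of day 4, 5.8002 times in the mean, with 2.55 ± 0.57 (adjusted p = 0.00155), yet day 14 held 0.784% of day 0.

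Pipox, the peroxisomal oxidase of pipecolate and sarcosine (chr11:77880615-77894096), had the highest level of the group at 197 ± 21.9 TPM (SD, n = 3) on day 0. It stood at 371, 385 and 314 CPM in replicates A, B and C of day 0, 99.7, 152 and 67.6 (day 1), 20.8, 10.9 and 12.5 (day 2), 0.158, 0.25998 and 0.176 (day 4), 1.202, 0.3896 and 0.225 (day 7) and 0.901, 0.463 and 1.04 (day 14). Day 14 was -8.77 ± 0.46 against day 0 (adjusted p = 9.43e-11) and 2.01 ± 0.71 against day 4 (adjusted p = 0.0269). The second call was lost without replicate A or C of day 4 or of day 14, with adjusted p from 0.0652 to 0.0857. That call was also lost with limma on log2(TPM + 1) and no filter (adjusted p = 0.0666).

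In the glutamate group, Oat and Glud1 were lower on every culture day and Glul from day 2 on. Oat, ornithine aminotransferase (chr7:132557478-132576398), had the highest level at 393 ± 9.62 TPM (SD, n = 3) on day 0. It stood at 786, 821 and 777 CPM in replicates A, B and C of day 0, 226, 279 and 172 (day 1), 159, 138 and 148 (day 2), 144, 129 and 132 (day 4), 117, 113 and 133 (day 7) and 77.6, 78.5 and 72.99 (day 14). It was called lower on each day and lower again on day 14 than on day 4 (-0.82 ± 0.13, adjusted p = 6.64e-05), with -3.38 ± 0.14 against day 0 (adjusted p = 7.14e-12). Oat overlaps Fgfr2 on the same strand, which was at 31.2 ± 6.48 CPM on day 0 and 142 ± 20.4 on day 14.

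Glul, glutamine synthetase (chr1:153899944-153909723), stood at 332, 312 and 229.5 CPM in replicates A, B and C of day 0, 190.5, 272 and 174 (day 1), 73.5, 45.96 and 77.3 (day 2), 13.8, 12.1 and 14.5 (day 4), 14.5, 9.46 and 20.4 (day 7) and 7.24, 4.95 and 5.995 (day 14). On day 1 the libraries overlapped those of day 0 and the difference of -0.46 ± 0.25 was not called (adjusted p = 0.114, or 0.0374 without replicate B of day 1). From day 2 on each library lay below those of day 0, and on day 14 the log2 fold change was -5.58 ± 0.31 (adjusted p = 1.69e-10). Glul also fell from day 4 to day 14, with -1.15 ± 0.27 (adjusted p = 0.00244). Glud1, glutamate dehydrogenase, which links glutamate to the citric acid cycle and frees ammonia, stood at 427, 459 and 428 CPM in the libraries of day 0, 225, 279 and 204 (day 1), 179, 172 and 173 (day 2) and 199, 209.7 and 193 (day 14), or 45.8% of day 0 on day 14 (-1.13 ± 0.09, adjusted p = 1.98e-08). Every library of day 14 lay above every one of day 2. Between days 4 and 14 the difference of 0.10 ± 0.09 was not called (adjusted p = 0.359), but was with limma on log2(TPM + 1) (0.29, adjusted p = 0.0134).

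In the arginine group, Ass1 and Asl fell and Arg2 rose. Ass1, argininosuccinate synthase (chr2:31470207-31520672), second in the list on day 0 at 1807 ± 156 TPM (SD, n = 3), stood at 2434, 2852 and 2959 CPM in replicates A, B and C of day 0, 632, 949 and 624 (day 1), 179.9, 101 and 149.5 (day 2), 46.7, 41.7 and 40.9 (day 4), 62.2, 46.05 and 49.6 (day 7) and 49.9, 47.7 and 48.5 (day 14). Days 4, 7 and 14 lay between 40.9 and 62.2 CPM, and the log2 fold change on day 14 was -5.82 ± 0.23 (adjusted p = 5.84e-12). Asl, argininosuccinate lyase, which completes arginine, kept 27.8%, 9.31% and 8.68% of its day 0 CPM on days 1, 2 and 14.

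Arg2, the mitochondrial arginase (chr12:79130777-79156301), which splits arginine into ornithine and urea, was the one member called higher. It stood at 6.01, 2.99 and 4.67 CPM in replicates A, B and C of day 0, 15.1, 18.01 and 16.7 (day 1), 15.2, 11.2 and 11.8 (day 2), 8.89, 6.63 and 8.66 (day 4), 16.9, 13.3 and 4.69 (day 7) and 11.3, 14.4 and 12.4 (day 14). All libraries of days 1, 2, 4 and 14 lay above all of day 0, and on day 7 replicate C overlapped day 0. The mean was 3.64 times that of day 0 on day 1 (1.87 ± 0.35, adjusted p = 0.000176) and 2.79 times on day 14 (1.48 ± 0.35, adjusted p = 0.00123). On day 7 it was 1.36 ± 0.35, or 1.74 without replicate C. On day 4 it was 0.83 ± 0.35 (adjusted p = 0.0399), a call lost with DESeq2's size factors and without replicate B or C of day 0 or replicate A or C of day 4. Its level was low, 3.68 ± 1.297 TPM (SD, n = 3) at isolation and 18.1 ± 1.95 on day 14. Arg2 overlaps Vti1b on the other strand, which was at 113 ± 4.28 CPM on day 0, 85.5 ± 5.69 on day 1 and 109 ± 1.96 on day 14. The part of Vti1b reads in the Arg2 level was not tested.

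**Figure D3:**
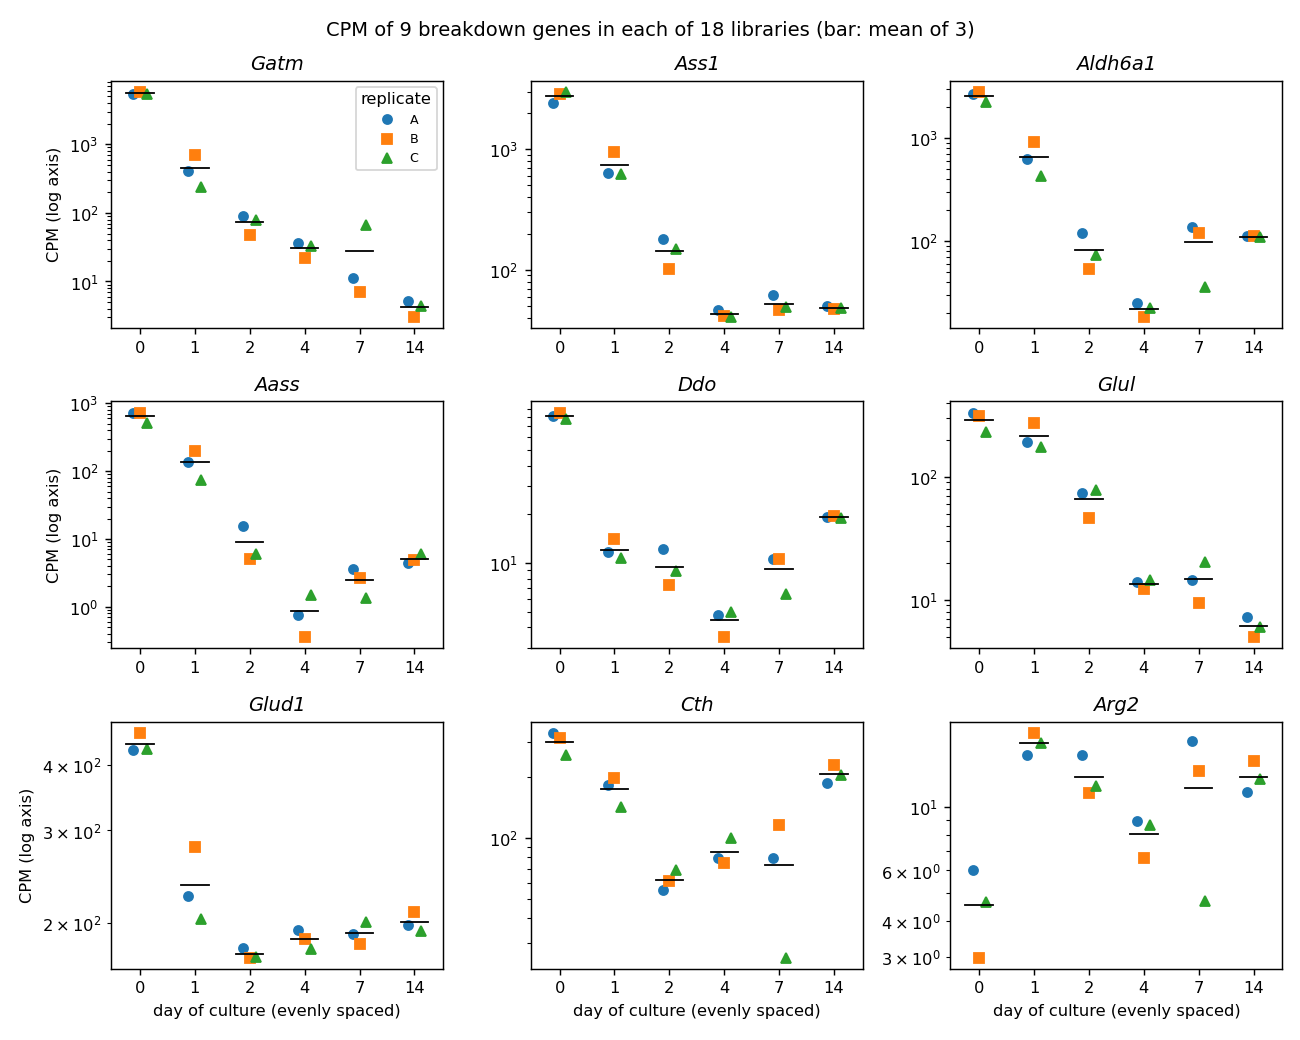
CPM of 9 members in each of the 18 libraries on log axes that differ between panels, by day of culture, with a symbol per replicate and a bar at the mean of 3. Gatm, Ass1 and Glul fall and stay low, Aldh6a1, Aass and Ddo turn up after day 4, Glud1 lies between 172 and 209.7 CPM from day 2, Cth returns towards day 0, Arg2 lies above day 0, and replicate C of day 7 is apart from A and B for Gatm, Aldh6a1, Cth and Arg2.

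The 2 peroxisomal oxidases of D-amino acids were both lower on every culture day. Dao, D-amino acid oxidase (chr5:114003703-114025682), had the higher level at 142 ± 4.73 TPM (SD, n = 3) on day 0. It stood at 208, 214 and 203 CPM in replicates A, B and C of day 0, 47.5, 59.3 and 37.9 (day 1), 9.93, 4.52 and 6.13 (day 2), 0.1898, 0 and 0.176 (day 4), 0.601, 0.4605 and 0.188 (day 7) and 0.435, 0.142 and 0.293 (day 14). It held at most 0.601 CPM in any library from day 4 on, its difference of 1.26 ± 0.78 between days 4 and 14 was not called (adjusted p = 0.19), and the log2 fold change on day 14 was -9.44 ± 0.43 (adjusted p = 2.15e-11).

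Ddo, D-aspartate oxidase (chr10:40630011-40681847), stood at 81.4, 84.96 and 77.2 CPM in replicates A, B and C of day 0, 11.6, 13.99 and 10.7 (day 1), 12.2, 7.36 and 8.96 (day 2), 4.75, 3.48 and 5.002 (day 4), 10.6, 10.6 and 6.45 (day 7) and 19.1, 19.6 and 18.9 (day 14). Its 3 libraries of day 14 lay within 18.9 and 19.6 CPM, above every library of days 1, 2, 4 and 7, and 4.36 times the day 4 mean (2.12 ± 0.21, adjusted p = 1.43e-06). Day 14 still held 23.7% of day 0 (-2.08 ± 0.20, adjusted p = 1.15e-07). The difference between Dao and Ddo was not tested.

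Agxt2, the mitochondrial aminotransferase that takes beta-aminoisobutyrate and dimethylated arginines (chr15:10358532-10410153), stood at 104, 104 and 85.5 CPM in replicates A, B and C of day 0, 25.7, 32.8 and 17.7 (day 1), 5.22, 2.46 and 2.53 (day 2), 0.0949, 0 and 0.0352 (day 4), 0.0902, 0.0708 and 0.0375 (day 7) and 0.0932, 0.0712 and 0.1303 (day 14). No library from day 4 on exceeded 0.1303 CPM, and the log2 fold change on day 14 was -9.89 ± 0.44 (adjusted p = 1.77e-11), at 0.1002% of day 0.

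From day 4 to day 14 the list split. Of the 44 members, 16 were called higher, where 28.6% of all genes were, and 6 were called lower, where 23.3% of all genes were, so the count of rises alone is no result about the list. The 16 were 7 of the 8 branched-chain genes (all but Bckdhb), 3 of 3 of propionyl-CoA, 2 of 2 of lysine, and Sardh, Cth, Ddo and Amt. The 6 were Gldc, Gcsh, Gatm, Glul, Oat and Afmid. Afmid lost its call with limma on log2(TPM + 1) (adjusted p = 0.0903) and on log2(TPM + 0.1) (adjusted p = 0.0615). With limma on log2(TPM + 1) and no filter, Afmid, Gldc and Glul lost theirs (adjusted p = 0.145, 0.0633 and 0.0650). Of the 16, 15 were still lower on day 14 than on day 0, and Cth was not called different from day 0 with all 18 libraries in the model. Among the 16, the rises of at least 4-fold were those of Aass (2.55), Aldh6a1 (2.33), Ddo (2.12) and Pipox (2.01). By site of the enzyme, 13 of 26 mitochondrial members tested, 1 of 15 cytosolic (Cth) and 2 of 3 peroxisomal were called higher, without a test between sites. The 13 include the 7 branched-chain and 3 propionyl-CoA genes, all mitochondrial, so site and amino acid group cannot be told apart for these. Leaving out 1 library moved the count of 16 to between 12 and 17, and with only the libraries of the 2 days 19 were higher and 9 lower. Besides Amt, Pipox and Pccb, named above, Hibch (0.38 ± 0.14) lost its call without replicate A, B or C of day 4 or replicate A or B of day 14. Hibch also lost it with DESeq2's size factors (adjusted p = 0.06335), without the low-count filter (adjusted p = 0.0691) and with the DESeq2 Wald test (adjusted p = 0.0536). Summed markers of 5 other cell types were also above day 4 in every library of day 14. Fibroblast markers summed to 26.5 to 43.2 CPM on day 4 and 138 to 189 on day 14 (3 of 6 tested called higher, 3 lower), and loop of Henle markers to 11.05 to 18.9 and 49.6 to 61.8 (2 of 6 higher, 0 lower). Macrophage markers summed to 9.29 to 11.6 and 32.7 to 38.8 (2 of 7 higher, 0 lower), and distal convoluted tubule markers to 33.5 to 46.1 and 97.4 to 105 (3 of 6 higher, 1 lower). Collecting duct markers summed to 54.0 to 62.7 and 113 to 165, with 3 of 11 called higher and 5 lower and a median log2 fold change of -2.01, so the sum and most of that list went opposite ways. Proximal tubule markers were at 33.5 to 54.5 and 33.4 to 46.3, endothelial at 29.8 to 36.4 and 3.85 to 5.12, and podocyte at 98.5 to 143 and 66.8 to 87.7. The part of any of these cell types in the late rises was not tested.

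**Figure D4:**
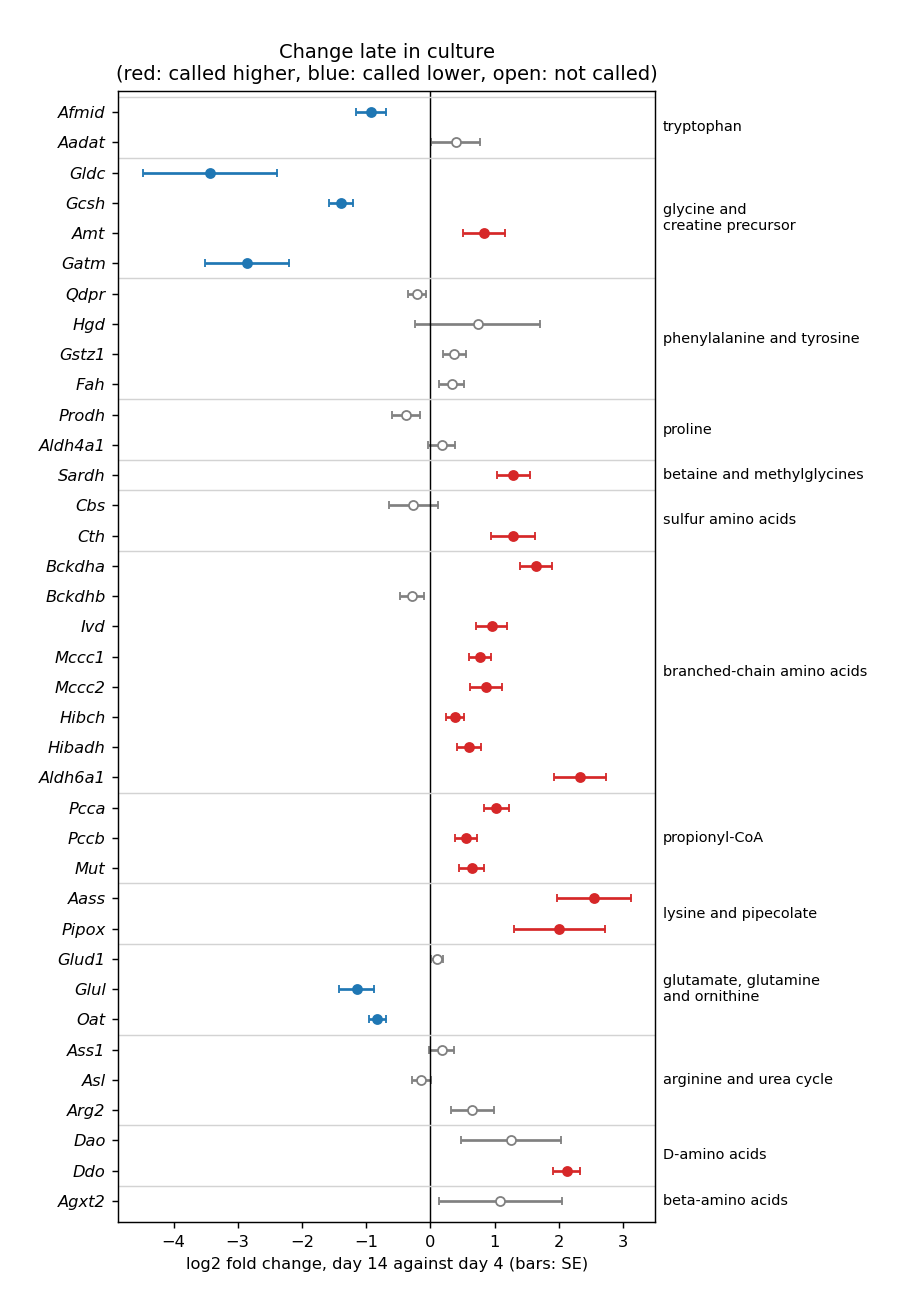
Log2 fold change of day 14 against day 4 with its SE for the 37 tested members above 3 counts on both days, grouped by amino acid, with filled red points called higher, filled blue points called lower and open points not called. The branched-chain, propionyl-CoA and lysine points lie to the right of 0 apart from Bckdhb, and Gldc, Gcsh, Gatm, Glul, Oat and Afmid lie to the left.

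By enzyme site, the median log2 fold change on day 14 against day 0 was -5.82 for 15 cytosolic, -3.42 for 26 mitochondrial and -8.77 for 3 peroxisomal members, and the ranges overlapped. All branched-chain and propionyl-CoA members are mitochondrial, so the split by site is not separate from that by amino acid. On day 14 the median cytosolic member held 1.77% of day 0, the median mitochondrial member 9.37% and the median peroxisomal member 0.225%. The lowest day in mean CPM was day 2 for 6 members, day 4 for 20, day 7 for 4 and day 14 for 13, with a tie at 0 counts given to the earlier day, and for Arg2 it was day 0.

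Other genes of amino acid breakdown were a list of 64, of which 55 were tested. On day 14, 49 were lower and 3 higher than on day 0, with a median of -2.57. Of all genes tested, 32.1% were lower and 37.4% higher on that day. On day 1 the counts were 49 and 3, where 37.1% and 33.1% of all genes were called. On day 4 they were 50 and 2, where 36.8% and 38.1% were. Aldh9a1, Pcbd1 and Kmo were among the falls with the smallest adjusted p on day 14. Pcbd1, which like Qdpr recycles a pterin cofactor, went from 434 ± 3.68 CPM on day 0 to 48.6 ± 0.228 on day 14 (SD, n = 3) (-3.16 ± 0.14, adjusted p = 1.17e-11), and Aldh9a1, an aldehyde dehydrogenase of the carnitine and aminobutyrate routes, from 687 ± 66.8 to 50.8 ± 1.67 CPM (-3.76 ± 0.15, adjusted p = 6.48e-12). Kmo, which makes hydroxykynurenine ahead of Kynu, went from 219 ± 25.2 CPM to 2 counts over the 3 libraries of day 14, 9999 (95% interval 2768 to 82572) times lower.

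The 3 called higher on day 14 were Bcat1, Gls2 and Arg1. Bcat1, the cytosolic aminotransferase of branched-chain amino acids, stood at 3.41, 1.51 and 4.82 CPM on day 0 and 149, 183 and 156 on day 14 (5.68 ± 0.61, adjusted p = 4.32e-07). It acts ahead of Bckdha and Bckdhb, which were lower. Gls2, a glutaminase, went from 0.227 ± 0.0955 to 0.964 ± 0.183 CPM (2.09 ± 0.31, adjusted p = 1.67e-05), and Arg1, the arginase best known from liver, had 1 count on day 0 and 83 on day 14 and was 62.4 (95% interval 10.9 to 2494) times higher by its counts.

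Most of the 10 genes listed under amino acid synthesis rose. On day 14, 7 exceeded day 0 and 3 were below it, with a median of 1.39. Of all genes tested, 37.4% were higher and 32.1% lower on that day. On day 1, 6 were higher and 2 lower, where 33.1% and 37.1% of all genes were. Asns, asparagine synthetase, stood at 4.45, 4.36 and 5.44 CPM on day 0 and 429.6, 485 and 452 on day 14 (6.59 ± 0.30, adjusted p = 2.5e-11). Aldh18a1 and Pycr1, which make proline from glutamate, went from 4.79 ± 1.11 to 218 ± 8.27 CPM (5.52 ± 0.25, adjusted p = 2.45e-11) and from 0.09802 ± 0.0485 to 30.7 ± 2.36 CPM (8.17 ± 0.40, adjusted p = 4.71e-11), while the proline breakdown members Prodh, Prodh2 and Aldh4a1 were lower. Phgdh, which starts serine synthesis, went from 74.3 ± 14.5 to 487 ± 18.2 CPM (2.71 ± 0.14, adjusted p = 7.4e-11). The 3 lower were Pycr3 (-1.53 ± 0.13), Odc1 (-2.09 ± 0.27) and Shmt2 (-0.99 ± 0.13), which links serine and glycine. Odc1 makes polyamines and not an amino acid, but is counted in the list and its median. Both lists share their day 0 libraries with the members, so their changes are not independent of them.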

How the data were processed

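The sources were 18 libraries of polyA RNA in 6 groups of 3. Per the submitters' processing notes, reads were trimmed with cutadapt 2.3, checked with FastQC 0.11.8, aligned to GRCm38 with STAR 2.7.8a and quantified with RSEM 1.3.3. The deposited estimated counts and the deposited TPM are the authors' values per gene; the strand setting is not given in the sources used here. The deposited estimated counts are whole numbers and were used as given, and 5 reporter transgenes were left out. One edgeR 4.0.16 quasi-likelihood model of the 6 day means (R 4.3.3, TMM, filterByExpr, edgeR's default prior count) was fitted to 18754 genes. P-values were adjusted over all of them by Benjamini-Hochberg. A prior count of 2 was used only for the log2 CPM behind the correlations of same-letter libraries. The SE is the log2 fold change divided by the root of F. DESeq2 1.42.0 and limma 3.58.1 (on log2(TPM + 1) and log2(TPM + 0.1), TPM filter 0.5) were alternatives. The test was also run on counts simulated for days 0 and 1 with the same spread set for all genes. Since the real libraries differ from that setting, no conclusion is drawn from it. Intervals for ratios of 1 to 3 counts are exact at 95%. Depth ran from 23799559 to 37579097 counts. Other alternatives changed the scaling, the low-count filter, the libraries entered and the replicate block.

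The members and lists were chosen with earlier results of these data known. Shown library by library are, per group, the member with the highest TPM on day 0 and that with the largest fitted fall on day 14, any member called higher or never called lower against day 0, and any that rose at least 4-fold from day 4 to day 14. Among genes at 0 counts the fitted fall depends on the prior count. In the other lists, up to 4 called genes with the smallest adjusted p are named in each direction, of which 1 is not reported here. Bckdha, Bckdhb and the other members given in part were chosen after their values were seen.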

Additional observations from a re-analysis of the deposited data

How the results depend on the processing

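Over 27 alternatives, 276 of 308 outcomes (called or not called, for 44 members in 7 comparisons) were kept in each, and 32 were changed in at least 1. Where the main model or the alternative made a call, 0 changed direction. A change of sign without a call in either, as for Cth on day 14 against day 0, was counted as no change. With the replicate block, 42, 43, 43, 43 and 42 members were lower on days 1, 2, 4, 7 and 14 than on day 0, 43 were lower on day 4 than on day 1, and from day 4 to day 14 the counts were 17 higher and 7 lower. The letters share no stated origin. Deviations of same-letter libraries correlated between -0.17 and 0.42, above 0.1 in 8 of 45 pairs, in all 3 letters only between days 2 and 4 (0.20, 0.16 and 0.29), which are not compared, and 12 of 18 libraries correlated best with their own letter, a hint from the data and not from the design. The member higher on day 4 than on day 0, Arg2, was 0 with DESeq2 size factors, and leaving out 1 library gave 0 to 1. The member higher on day 7 was 0 with only the libraries of the 2 days. Members higher on day 4 than on day 1 numbered 1 with only the libraries of the 2 days, and 0 to 1 when 1 library was left out. Members lower on day 14 than on day 4 numbered 3 with limma on log2(TPM + 1) and no filter, and 9 with only the libraries of the 2 days, where 19 were higher. The cause of these changes was not tested. Library sizes alone moved the median of all genes by 0.30, 0.51, 0.49, 0.50 and 0.56 on days 1 to 14 against day 0, and limma on log2(TPM + 1) by 0.77 on day 14. The members' median on day 14 was then -3.90 and -3.46. At 0 to 3 counts a day, depth limits the fold to a bound or a wide interval.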
